A study of Mus musculus with 12 samples.

Results

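The comparison described here is that of stimulated TNFR2-/- (TNFR2-/- St) with stimulated wild-type (WT St) oligodendrocyte precursor cells (OPCs). It covered 18075 of the 45563 gene symbols used, namely those that occur once in the deposited table and have a mean of at least 0.1 FPKM (fragments scaled to gene and library size) over the 6 stimulated libraries. OPCs were purified with anti-PDGFRα beads from the cortices of C57BL/6 pups, given as 2 to 5 days old in the sample labels, and were grown for 3 days with PDGF-AA and FGF2. They were then exposed for 3 h to TNF, IFNγ and IL1β, each at 25 ng/mL. TNFR2-/- cells came from a germline knockout line, so every cell of the pups carried the deletion. The methods state that the knockout and WT mice were bought from a supplier and describe no littermate controls. Genotype therefore cannot be told apart from mouse line in any comparison below. Each group had 3 libraries, numbered 2, 3 and 4 in WT St and 2, 4 and 5 in TNFR2-/- St, and values are given below in that order. The same cultures without cytokines gave 3 WT NS and 3 TNFR2-/- NS (non-stimulated) libraries, which entered the fit and are cited beside single genes. How many pups went into a culture, and their sex, are not given in the sources used here.

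TNFR2, encoded by *Tnfrsf1b*, is the TNF receptor that binds chiefly membrane-bound TNF and lacks a death domain. It recruits TRAF2 and feeds into NF-κB and PI3K/AKT signaling, whereas TNFR1 also responds to soluble TNF and carries a death domain. IFNγ acts through JAK-STAT signaling and induces guanylate binding proteins, immunity-related GTPases, the immunoproteasome, MHC-I and the chemokines CXCL9 to CXCL11, and TNF and IL1β act through NF-κB on chemokines and on the feedback inhibitors of that pathway. OPCs are the dividing progenitors of myelin-forming oligodendrocytes, and they express chemokines and antigen presentation genes when exposed to such cytokines.

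The 6 stimulated libraries held 28701304 to 30249578 read pairs. Levels were compared with limma on log2(FPKM + 0.5), with 1 estimate of the spread over the 12 libraries, and p-values were adjusted over all genes tested by the Benjamini-Hochberg method, which gives every adjusted p below. The fit took the 12 libraries as independent, although the NS and St libraries of a culture go together (estimated correlation 0.562). A gene was called when its adjusted p was 0.05 or less, its fold change was 1.5 or more and its mean reached 1 FPKM. Fold changes are differences on the log2(FPKM + 0.5) scale, TNFR2-/- St minus WT St, with their standard error (SE), and understate the change of genes near or below 0.5 FPKM. The number of bases by which each gene was divided to make its FPKM bore no relation to its annotated length, so FPKM levels of different genes are not compared below. The cut-offs of 0.1 and 1 FPKM and the added 0.5 still apply to all genes alike. They thus stand for a different number of reads in each gene, and which genes pass them is in part arbitrary. With 3 libraries against 3, an exact permutation test of a single gene could not go below p = 0.1. Nothing in the labels says that the 3 cultures of a group came from separate litters, so p-values measure the spread between these samples.

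The transcript of the targeted gene was not lower in the libraries labelled TNFR2-/-. *Tnfrsf1b* (ENSMUSG00000028599, chromosome 4, 145213463 to 145246870 on GRCm38) had 145, 61 and 105 reads in WT St and 282, 356 and 290 in TNFR2-/- St, and thus more in each library labelled TNFR2-/- than in any WT St library (log2 fold change 1.28 ± 0.21 SE, adjusted p = 0.0159). The counts do not show which exons the reads cover, so they do not check the deletion. TNFR2-/- below stands for the libraries labelled so, and every direction rests on these labels. *Tnfrsf1a*, the gene of TNFR1, had 157, 171 and 157 FPKM in WT St and 143, 155 and 135 in TNFR2-/- St (−0.16, adjusted p = 0.197). Markers of OPCs were high in all 6 libraries. The summed level of 8 OPC markers was 7292, 8194 and 7115 RPM (reads scaled to the library total) in WT St and 7484, 8012 and 8175 in TNFR2-/- St, with ranges that overlap. Of these 8, *Pdgfra*, the receptor by which the cells were purified, was lower in TNFR2-/- St (104, 123 and 93.4 FPKM in WT St and 74.03, 80.7 and 57.02 in TNFR2-/- St, −0.60, adjusted p = 0.0486) and called, as was *Lhfpl3* (448, 614 and 504 FPKM in WT St and 323, 349 and 364 in TNFR2-/- St, −0.59, adjusted p = 0.0386), and *Olig2* had 979 to 1054 FPKM in WT St and 884 to 1015 in TNFR2-/- St (−0.07, adjusted p = 0.682).

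Astrocyte markers stood higher in TNFR2-/- St than in WT St. Their summed level over 10 genes was 2046, 2010.3 and 2074 RPM in WT St and 3025, 3089 and 4646 in TNFR2-/- St, with TNFR2-/- St replicate 5 the highest. All 10 had a positive fold change, 9 had groups that did not overlap and were higher (15.4% of all genes tested), and the median was 0.80. The glutamate transporter genes *Slc1a3* (3676, 3883 and 3741 FPKM in WT St and 5568, 5709 and 7027 in TNFR2-/- St, 0.69, adjusted p = 0.0118) and *Slc1a2* (52.98, 56.4 and 47.6 FPKM in WT St and 89.98, 88.5 and 147 in TNFR2-/- St, 1.01, adjusted p = 0.0448) were called, as 1.23% of all genes were in this direction. *Gfap*, the intermediate filament gene of reactive astrocytes, had 23.3, 14.1 and 22.2 FPKM in WT St and 28.9, 42.5 and 233 in TNFR2-/- St and missed the threshold (1.74, adjusted p = 0.257). *Aqp4*, the astrocyte water channel, had 158, 85.7 and 136 FPKM in WT St and 235, 257 and 718 in TNFR2-/- St (1.52, adjusted p = 0.115). *Gfap* and *Aqp4* were chosen after their values were seen. The summed level of mural cell and fibroblast markers went the other way, from 1074, 928 and 1249.5 to 831, 609 and 356 RPM over 12 genes, *Pdgfra* among them. Of the 10 tested, 8 had a negative fold change and 2 had groups that did not overlap and were lower (17.3% of all genes). *Pdgfra*, also an OPC marker, was the only 1 called. Microglia markers lay at 9.91 to 11.1 RPM, with 4 of 12 at 0 in all stimulated libraries and only 3 past the filter on low values. Mature oligodendrocyte, endothelial and neuronal markers overlapped between genotypes in their sums. In bulk RNA, more cells of a type and more RNA of that type per cell cannot be told apart. In the sex-linked gene *Xist*, WT St replicate 2 had 1.14 FPKM and the other 5 libraries 142 to 322. Of 5 sex-linked genes tested, 4 had a negative and 1 a positive fold change, with a median of −1.03 (−1.08 in NS). None was called, and 1 had groups that did not overlap and was lower (17.3% of all genes). Whether the sex of the pups differed between the groups was not tested. The calls of *Tnfrsf1b*, *Pdgfra*, *Lhfpl3*, *Slc1a2* and *Slc1a3* were each lost without at least 1 of WT St replicates 2, 3 or 4, TNFR2-/- St replicates 2, 4 or 5, WT NS replicates 2, 3 or 4 or TNFR2-/- NS replicate 2 (adjusted p 0.0305 to 0.166, those under 0.05 failing the fold). The part of cell makeup and of replicate 5 in the results below was not tested beyond the values given.

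**Figure D1:**
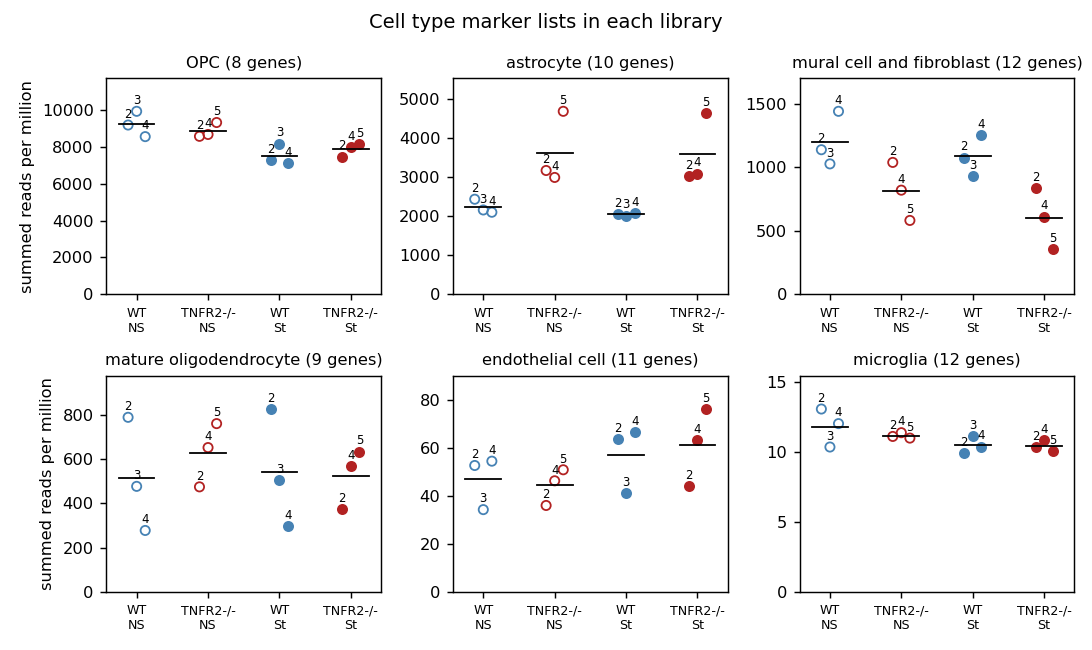
Summed reads scaled to the library total (RPM) of 6 cell type marker lists in each of the 12 libraries, with the replicate number above each point and the group mean as a bar, and with a vertical axis from 0 of its own in each panel. After stimulation astrocyte markers lie higher, and mural cell and fibroblast markers lower, in the 3 TNFR2-/- libraries, farthest in replicate 5, while OPC marker sums overlap between genotypes.

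By the call rule, 334 genes differed between the genotypes after stimulation (1.85% of those tested), 222 of them higher in TNFR2-/- St (1.23%) and 112 lower (0.62%). The shares of 1.23% and 0.62% are those to set beside each count of list members called in this text. All 334 had groups that did not overlap, a pattern seen in 5923 genes in all (32.8%), 2790 of them higher (15.4%) and 3133 lower (17.3%). A lack of overlap noted in this text for a called gene therefore adds no support to its call. By adjusted p alone there were 992 genes (5.49%), 490 higher and 502 lower. The change was over 2-fold in 70 of the genes called higher and 33 of those called lower, with median fold changes of 0.81 and −0.78. Genes matched to a protein-coding annotation made up 206 of the 222 and 86 of the 112. TNFR2-/- St replicate 5 was the library farthest from the WT St mean in 155 genes called higher and 74 called lower, and 81 genes were called without it. The count also fell when other libraries were left out, to 54 for WT St replicate 4, 65 for replicate 3 and 198 for replicate 2 of that group, 129 for replicate 2 of TNFR2-/- St and 202 for replicate 4 of WT NS. The count rose to 484 without TNFR2-/- St replicate 4, and to 432 and 452 without TNFR2-/- NS replicates 4 and 5. It was 49 with the spread taken from the 6 stimulated libraries alone. All 334 genes kept their direction in each of these fits, which could not come out otherwise for groups that do not overlap. With the summed astrocyte marker level as a covariate, an alternative added after the data were seen, 17 genes were called, 5 of them among the 334. That level comes from the same libraries and does not overlap between the genotypes, before or after stimulation. Values from this fit, here and below, therefore cannot tell marker level from genotype. The median over all genes tested was −0.003.

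**Figure D2:**
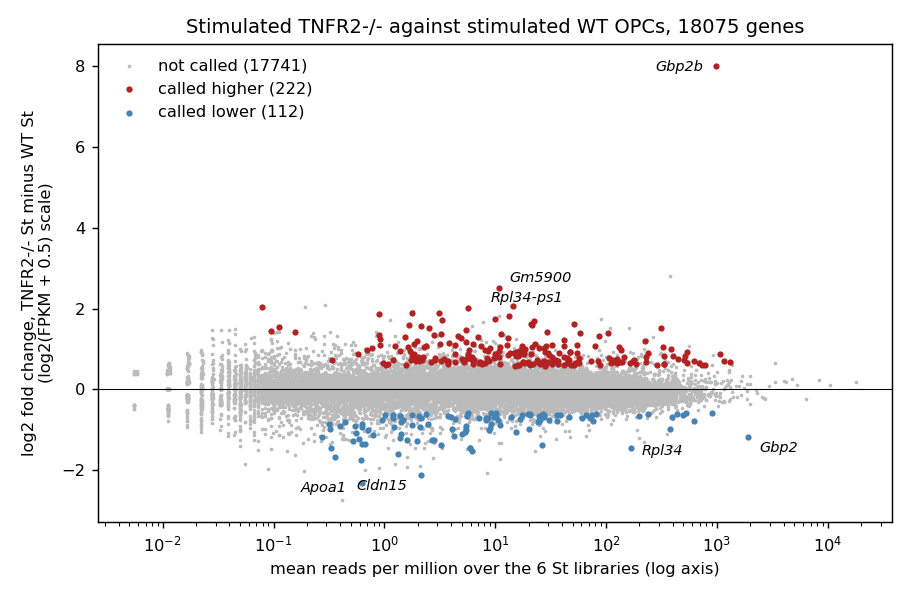
Log2 fold change between TNFR2-/- St and WT St against mean RPM over the 6 stimulated libraries (log axis), 1 point per gene tested, with genes called higher in red and called lower in blue. *Gbp2b* stands alone at 8.01, and 70 genes called higher and 33 called lower changed by over 2-fold.

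The same test in the non-stimulated libraries called 512 genes (2.83%), 285 higher (1.58%) and 227 lower (1.26%) in TNFR2-/- NS. Of the 222 genes called higher after stimulation, 209 (94.1%) also had a positive NS fold change and 86 were called higher there. Of the 112 called lower, 105 (93.8%) had a negative NS fold change and 45 were called lower there. No gene was called in opposite directions. The NS and St libraries of a genotype come from the same cultures, so these counts are not independent. Whether the genotype difference itself changed with stimulation was tested by the interaction of genotype and stimulation, where 1 gene passed at an adjusted p of 0.05 (0.00553%) and 1437 had an unadjusted p under 0.05 (7.95%). That gene was *Gbp2b*. For every other gene below, a difference seen after stimulation is not shown to be another than the one before it.

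Guanylate binding proteins are large GTPases that are induced by interferon and gather on the membranes of intracellular pathogens. Of 9 genes of the family tested, 4 were called higher in TNFR2-/- St, 1 was called lower and 4 were not called (1.23% of all genes tested were called higher and 0.62% lower), with a median of 0.84, or 0.72 without TNFR2-/- St replicate 5 and 0.44 with the astrocyte covariate. Without TNFR2-/- St replicate 5, 3 were called higher and 0 lower. RefSeq gave 6 promoters for 5 of the 9 genes, on GRCm38.p6. The 250 bases before the start site are shown for the 4 genes on chromosome 3 that were called, since the neighbors *Gbp2b* and *Gbp2* went opposite ways. Capitals mark the interferon-stimulated response element (ISRE), searched on both strands as GAAA, NN and GAAA in a row, and the gamma-activated site (GAS), searched as TTCNNNGAA on both strands. No ISRE match overlaps a GAS match here, and the 2 ISRE matches of *Gbp3* overlap each other.
Gbp2b (chr3:142594597-142594846, + strand): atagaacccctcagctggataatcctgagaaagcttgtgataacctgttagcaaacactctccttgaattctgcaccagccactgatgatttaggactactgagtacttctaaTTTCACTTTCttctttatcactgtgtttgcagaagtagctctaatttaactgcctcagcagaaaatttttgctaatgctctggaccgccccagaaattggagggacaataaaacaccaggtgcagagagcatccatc
Gbp2 (chr3:142620413-142620662, + strand): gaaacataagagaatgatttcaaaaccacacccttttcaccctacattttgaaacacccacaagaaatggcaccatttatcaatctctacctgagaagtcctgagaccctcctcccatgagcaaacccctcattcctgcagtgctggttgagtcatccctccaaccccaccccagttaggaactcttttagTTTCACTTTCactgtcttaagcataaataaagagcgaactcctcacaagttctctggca
Gbp3 (chr3:142559794-142560043, + strand): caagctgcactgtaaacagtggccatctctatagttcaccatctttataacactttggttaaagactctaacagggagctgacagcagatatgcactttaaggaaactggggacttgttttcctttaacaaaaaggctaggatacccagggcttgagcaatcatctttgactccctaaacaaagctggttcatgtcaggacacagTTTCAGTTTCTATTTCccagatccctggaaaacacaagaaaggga
Gbp7 (chr3:142530086-142530335, + strand): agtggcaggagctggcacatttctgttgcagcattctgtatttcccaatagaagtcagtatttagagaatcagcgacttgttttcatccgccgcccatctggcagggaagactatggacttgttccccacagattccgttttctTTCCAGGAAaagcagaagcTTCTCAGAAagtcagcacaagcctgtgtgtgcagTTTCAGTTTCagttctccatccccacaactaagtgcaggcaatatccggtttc
The ISRE letters were present in each of these 4 windows, starting 137 bases before the start site in *Gbp2b* and 59 in *Gbp2*, and the GAS letters in that of *Gbp7* alone. The ISRE letters occurred in 2.98% of all 32851 RefSeq promoters of this length and the GAS letters in 7.02%. The shares among promoters of genes tested were 2.57% and 6.04% of 14954. Among promoters of genes called higher they were 5.64% and 10.8% of 195, those of *Gbp2b*, *Gbp3* and *Gbp7* among them. Among promoters of genes called lower they were 1.19% (1 promoter) and 5.95% of 84. A match describes the letters in the window and not the binding of a factor.

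*Gbp2b* (ENSMUSG00000040264, chromosome 3, 142594847 to 142619179) was all but silent in WT St and abundant in TNFR2-/- St. It had 37, 279 and 180 reads in WT St and 59491, 49174 and 66278 in TNFR2-/- St, or 0.216, 1.63 and 1.05 FPKM in WT St and 348, 286 and 406 in TNFR2-/- St, which is 358-fold between the means (log2 fold change 8.01 ± 0.32 SE, adjusted p = 2.53e-06). Before stimulation it had 1, 0 and 2 reads in WT NS and 21, 13 and 52 in TNFR2-/- NS, so the groups did not overlap there either. The interaction was 7.63 ± 0.46 SE (adjusted p = 0.000141). *Gbp2* (ENSMUSG00000028270, chromosome 3, 142620602 to 142638008), which starts just past the end of *Gbp2b* on the same strand, went the opposite way. It had 83994, 83476 and 72759 reads in WT St and 34972, 36341 and 32307 in TNFR2-/- St (log2 fold change −1.19 ± 0.26 SE, adjusted p = 0.0341). Their reads summed to 84031, 83755 and 72939 in WT St and 94463, 85515 and 98585 in TNFR2-/- St, of which *Gbp2b* held 0.0440% to 0.333% and 57.5% to 67.2%. The annotated transcripts of the 2 genes share no run of 100 bases with each other or with any other gene.

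Other members on chromosome 3 went with *Gbp2b*. *Gbp3* had 84.1, 85.6 and 78.6 FPKM in WT St and 141, 135 and 164 in TNFR2-/- St (0.82, adjusted p = 0.0132) and *Gbp7* had 44.8, 44.9 and 41.6 FPKM in WT St and 81.7, 76.2 and 118 in TNFR2-/- St (1.04, adjusted p = 0.0207), and both were called higher. *Gbp5* had 45.6, 34.4 and 37.8 FPKM in WT St and 61.3, 52.3 and 101 in TNFR2-/- St and fell short of the threshold (0.81, adjusted p = 0.0548). On chromosome 5, *Gbp10* was called (6.96, 5.13 and 5.11 FPKM in WT St and 9.46, 9.72 and 14.9 in TNFR2-/- St, 0.91, adjusted p = 0.0216), but 73.5% of the 100-base runs of its transcripts also occur in other genes, so its reads are uncertain. *Gbp4* had 53.3, 33.4 and 32.96 FPKM in WT St and 71.8, 52.5 and 94.5 in TNFR2-/- St (0.86, adjusted p = 0.0518), *Gbp9* 58.1, 25.5 and 40.6 FPKM in WT St and 76.2, 59.5 and 77.3 in TNFR2-/- St (0.84, adjusted p = 0.131), and *Gbp8* was at or below 0.232 FPKM throughout. The call of *Gbp2b* held without any 1 of the 12 libraries. Those of *Gbp2*, *Gbp3*, *Gbp7* and *Gbp10* were lost without at least 1 of WT St replicates 2, 3 or 4, TNFR2-/- St replicates 2 or 5 or WT NS replicate 4 (adjusted p 0.0545 to 0.118). *Gbp2*, *Gbp4*, *Gbp5*, *Gbp8* and *Gbp9* were named after their values were seen.

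**Figure D3:**
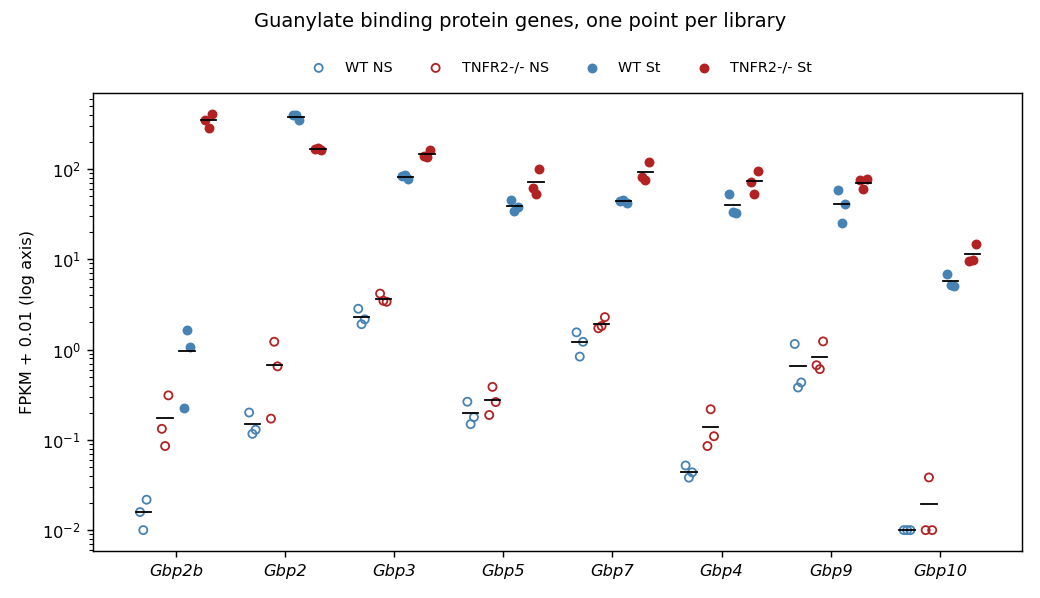
FPKM + 0.01 (log axis) of 8 guanylate binding protein genes, 1 point per library, open for NS and filled for St, with bars at group means. *Gbp2b* is below 2 FPKM in the 3 WT St libraries and at 286 to 406 in the 3 TNFR2-/- St libraries, whereas *Gbp2* is higher in WT St.

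The processed pseudogenes *Gm5900* and *Rpl34-ps1* rose while a parent gene of each fell. *Gm5900* (chromosome 7) had 82, 103 and 93 reads in WT St and 619, 562 and 472 in TNFR2-/- St (log2 fold change 2.51 ± 0.11 SE, adjusted p = 3.51e-06), while *Lamtor3* on chromosome 3, whose product anchors MAPK and mTORC1 signaling at lysosomes, had 2717, 3068 and 2953 reads in WT St and 1722, 1701 and 1471 in TNFR2-/- St (−0.78, adjusted p = 0.00875). Of the reads of this pair, *Gm5900* held 2.93% to 3.25% in WT St and 24.3% to 26.4% in TNFR2-/- St. *Rpl34-ps1* (chromosome 6) had 83, 87 and 65 reads in WT St and 762, 711 and 648 in TNFR2-/- St (log2 fold change 1.81 ± 0.09 SE, adjusted p = 8.86e-06), while *Rpl34* on chromosome 3, a protein of the large ribosomal subunit, had 7220, 7473 and 7574 reads in WT St and 2630, 2927 and 2348 in TNFR2-/- St (−1.46, adjusted p = 0.000201). The pseudogene's share of that pair was 0.851% to 1.15% in WT St and 19.5% to 22.5% in TNFR2-/- St. Both shares were several times higher in TNFR2-/- St with no overlap, and the pairs' summed reads were lower there (2799, 3171 and 3046 against 2341, 2263 and 1943, and 7303, 7560 and 7639 against 3392, 3638 and 2996). *Gm5900* shares 49.3% of its 100-base runs with *Lamtor3*. *Rpl34-ps1* shares 98.4% of its runs with some other gene, 60.4% with *Gm10154* and 46.3% with *Rpl34*. How reads were divided among these genes is therefore uncertain. The same differences were present before stimulation (2.88, adjusted p = 1.75e-06 for *Gm5900*, and 2.05, adjusted p = 3.75e-06 for *Rpl34-ps1*). The adjusted p of all 4 stayed below 0.05 without any 1 library, and *Rpl34-ps1* fell below a mean of 1 FPKM, and so out of the calls, without any 1 of the TNFR2-/- St replicates. *Lamtor3* was named after its values were seen.

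The other protein-coding genes with the largest increases had varied roles. *Rnf125*, a ubiquitin ligase that acts on RIG-I, had 121, 98.00 and 74.8 FPKM in WT St and 269, 296 and 815 in TNFR2-/- St (log2 fold change 2.06 ± 0.48 SE, adjusted p = 0.0399), with replicate 5 far above the other TNFR2-/- St libraries. *Slc2a4*, the insulin-responsive glucose transporter GLUT4, had 5.54, 3.97 and 7.65 FPKM in WT St and 22.5, 14.4 and 31.2 in TNFR2-/- St (1.88, adjusted p = 0.0217). *Gjb2*, the gap junction protein connexin 26, had 7.77, 5.37 and 5.40 FPKM in WT St and 26.6, 13.6 and 27.3 in TNFR2-/- St (1.74, adjusted p = 0.0190). The genotypes were separate in all 3, as in every gene called. *Bmpr1b*, a BMP receptor, had 2.16, 1.89 and 2.11 FPKM in WT St and 6.99, 5.50 and 10.1 in TNFR2-/- St (1.62, adjusted p = 0.0110), and *Ptgs1*, cyclooxygenase 1, had 0.384, 0.408 and 0.136 FPKM in WT St and 2.63, 1.44 and 1.82 in TNFR2-/- St (1.60, adjusted p = 0.0229). These genes except *Rnf125* (0.66, adjusted p = 0.393) also differed before stimulation (1.48, adjusted p = 0.0297 for *Slc2a4*, 1.23, adjusted p = 0.0333 for *Gjb2*, 1.23, adjusted p = 0.0188 for *Bmpr1b* and 1.59, adjusted p = 0.0184 for *Ptgs1*).

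Others of the largest increases included genes with NS fold changes near 0. *Sectm1b* had 5.47, 5.06 and 2.94 FPKM in WT St and 19.4, 11.3 and 23.4 in TNFR2-/- St (1.87, adjusted p = 0.00974) and *F830016B08Rik*, a member of the immunity-related GTPase family, had 8.25, 7.47 and 6.23 FPKM in WT St and 17.7, 22.3 and 32.5 in TNFR2-/- St (1.62, adjusted p = 0.00557). *Slfn5*, a Schlafen gene induced by interferon, had 12.8, 10.7 and 13.7 FPKM in WT St and 28.4, 28.8 and 88.9 in TNFR2-/- St (1.72, adjusted p = 0.0402), and the neighboring pseudogene *Slfn10-ps* had 0.582, 0.642 and 0.582 FPKM in WT St and 2.04, 1.45 and 4.03 in TNFR2-/- St (1.36, adjusted p = 0.0213). The highest NS fold change of these 4 was 0.03 (*Slfn10-ps*), and the lowest adjusted p of their interactions was 0.430 (*F830016B08Rik*). *Foxi1*, a forkhead transcription factor, was near the detection limit, with 1, 0 and 0 reads in WT St and 5, 2 and 6 in TNFR2-/- St (2.03, adjusted p = 0.0157). *Masp2*, a protease of the lectin pathway of complement, had 0.449, 0.923 and 0.661 FPKM in WT St and 3.26, 4.16 and 3.93 in TNFR2-/- St (1.88, adjusted p = 0.00139), but 50.9% of its 100-base runs lie antisense to *Tardbp*. It differed before stimulation as well (1.58, adjusted p = 0.00359). *RP24-378G4.3*, which had no match in the annotation, had 3.64, 7.29 and 3.35 FPKM in WT St and 19.3, 20.2 and 19.9 in TNFR2-/- St (2.02, adjusted p = 0.0107) and an NS difference that was no smaller (2.401, adjusted p = 0.00639). Of these 12 genes, *Masp2*, *Sectm1b*, *F830016B08Rik*, *Bmpr1b* and *RP24-378G4.3* held without any 1 of the 12 libraries. The other 7 were lost without at least 1 of WT St replicates 2, 3 or 4, TNFR2-/- St replicates 2 or 5, WT NS replicates 2, 3 or 4 or TNFR2-/- NS replicate 2 (adjusted p 0.0474 to 0.138, those under 0.05 failing the fold or the level).

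Of the largest decreases, that of *Apoa1*, the main protein of high-density lipoprotein, came first (7.28, 15.9 and 8.23 FPKM in WT St and 1.27, 2.20 and 1.33 in TNFR2-/- St, log2 fold change −2.33 ± 0.37 SE, adjusted p = 0.0144). Tight junction and endothelial adhesion genes followed, namely *Cldn15* (19.5, 33.1 and 27.4 FPKM in WT St and 3.05, 8.33 and 6.65 in TNFR2-/- St, −2.13, adjusted p = 0.0217) and *Esam* (3.62, 2.86 and 3.51 FPKM in WT St and 0.440, 1.31 and 0.345 in TNFR2-/- St, −1.76, adjusted p = 0.0336). Before stimulation *Apoa1* (−1.88, adjusted p = 0.0190) and *Cldn15* (−2.15, adjusted p = 0.0175) differed too, and *Esam* missed the threshold (−1.25, adjusted p = 0.0609). *Esam* was the 1 gene called of 9 endothelial markers tested, whose median was −0.13, or −0.22 without TNFR2-/- St replicate 5 and −0.36 with the astrocyte covariate. *Sox21*, a transcription factor of neural progenitors, had 104, 141 and 117 FPKM in WT St and 45.3, 79.5 and 27.04 in TNFR2-/- St (−1.37, adjusted p = 0.0363), and its NS difference was not past the threshold (−0.08, adjusted p = 0.897). *Amn*, amnionless, had 6.97, 8.60 and 8.58 FPKM in WT St and 2.15, 3.73 and 2.25 in TNFR2-/- St (−1.44, adjusted p = 0.0102) and likewise no NS difference past the threshold (0.17, adjusted p = 0.636). As in all genes called lower, every TNFR2-/- St value of these 5 lay below every WT St value.

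Further decreases were those of *Arhgap27* (−1.53, adjusted p = 0.0311), a GTPase-activating protein, *Eva1b* (−1.45, adjusted p = 0.0263), *Dok3* (−1.37, adjusted p = 0.0348), an adaptor that restrains immune receptor signaling, *5930422O12Rik* (−1.36, adjusted p = 0.0439), *Npm2* (−1.27, adjusted p = 0.0398), a histone chaperone, and *Pla2g4c* (−1.27, adjusted p = 0.0361), a cytosolic phospholipase. Among symbols not matched to a protein-coding annotation, *Gm12783* (−1.68, adjusted p = 0.0378), *Gm15708* (−1.60, adjusted p = 0.0434), *Ifi30* (−1.45, adjusted p = 0.0328) and the antisense transcript *Atcayos* (−1.36, adjusted p = 0.00953) were lower. That set also takes in symbols without any match, so it does not show that a gene is noncoding. Before stimulation the fold changes of these 10 genes were all negative, from −1.41 (*Eva1b*) to −0.64 (*Atcayos*), and those of *Eva1b*, *Dok3*, *Npm2*, *Pla2g4c*, *Gm15708* and *Ifi30* had an adjusted p under 0.05. Genes on the other strand cover 18.7% of the 100-base runs of *Arhgap27*, 16.6% of those of *Sox21* and 8.18% of those of *Atcayos*, and reads there cannot be told apart, since the counting is not stated to use strand. Of these 15 decreases, *Amn* and *Atcayos* held without any 1 library. The other 13 were lost without at least 1 of WT St replicates 2, 3 or 4, TNFR2-/- St replicates 2 or 5, WT NS replicates 2, 3 or 4 or TNFR2-/- NS replicate 2 (adjusted p 0.0505 to 0.153).

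Several of these genes lie near *Gbp2b* or *Tnfrsf1b*, a pattern noticed in the values and described with a window of 15 Mb chosen afterwards. Within 15 Mb of *Gbp2b*, 10 of 112 other genes tested were called (8.93%, against 1.75% of 628 on the rest of chromosome 3), 4 higher and 6 lower. Over all genes tested the share called was 1.85%. Besides the *Gbp* genes, *Lamtor3* and *Rpl34* these were *Bmpr1b*, *Ifi44* (0.80, adjusted p = 0.0161), *Ccdc109b* (−1.25, adjusted p = 0.0159), *Ddit4l* (−1.06, adjusted p = 0.0469) and *Pla2g12a* (−0.66, adjusted p = 0.00953). Within 15 Mb of *Tnfrsf1b* on chromosome 4, 8 of 330 were called (2.42%, against 1.34% of 671 on the rest). That share lies near the 1.85% over all genes tested. Among the 8 were *Masp2*, *Pik3cd*, *Rps19-ps3* (0.72, adjusted p = 0.0159), *Alpl* (0.64, adjusted p = 0.0384), *Asap3* (0.90, adjusted p = 0.0454) and *Zfp46* (0.64, adjusted p = 0.0110), which were higher, and *Fbxo44* (−0.64, adjusted p = 0.0292), which was lower. The NS test called 6 and 8 genes within these windows. The calls of *Bmpr1b*, *Ccdc109b*, *Pla2g12a*, *Masp2* and *Pik3cd* held without any 1 library, and the other 7 named here besides *Lamtor3*, *Rpl34* and the *Gbp* genes were lost without at least 1 of WT St replicates 2, 3 or 4, TNFR2-/- St replicates 2, 4 or 5, WT NS replicates 2, 3 or 4 or TNFR2-/- NS replicate 2 (adjusted p 0.0326 to 0.143, those under 0.05 failing the fold or the level). *Ccdc109b*, *Ddit4l*, *Pla2g12a*, *Rps19-ps3*, *Alpl*, *Asap3*, *Zfp46* and *Fbxo44* were named after their values were seen.

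**Figure D4:**
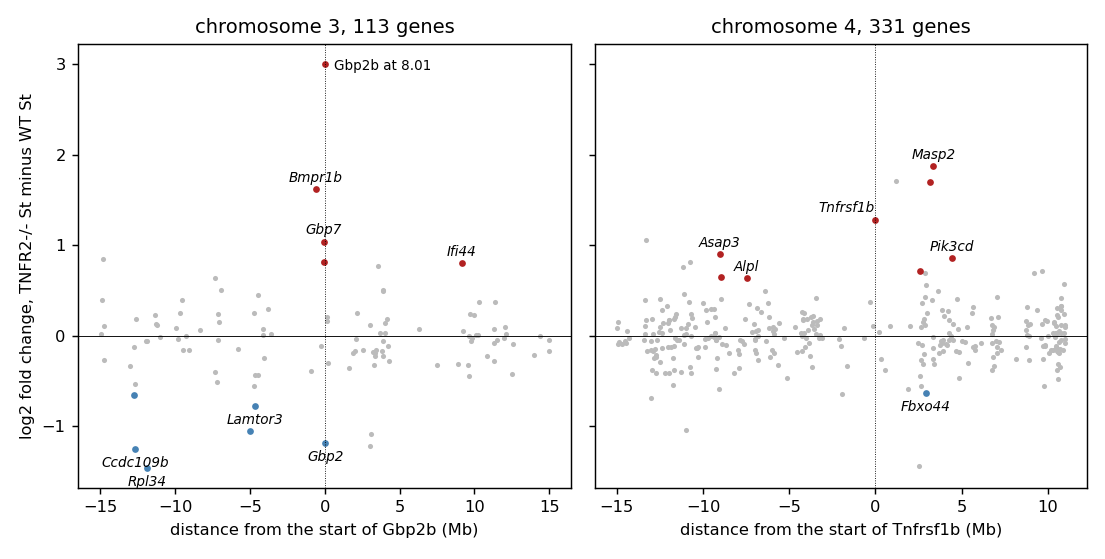
Log2 fold change of each gene tested within 15 Mb of *Gbp2b* and of *Tnfrsf1b*, against the distance of its midpoint from the start of that gene, with genes called higher in red and lower in blue and *Gbp2b* drawn at the upper edge. Called genes near *Gbp2b* include *Bmpr1b* and *Gbp2*, and those near *Tnfrsf1b* include *Masp2*, at over 3 Mb from it.

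Most genes of TNF receptor signaling were not called. Of 27 ligands, receptors and proximal adaptors tested, 2 were called higher (1.23% of all genes) and 25 were not called, with a median of 0.16, or 0.13 without TNFR2-/- St replicate 5 and −0.12 with the astrocyte covariate. Besides *Tnfrsf1b* this was *Traf2*, the adaptor of TNFR2, with 14.4, 11.3 and 13.1 FPKM in WT St and 19.9, 17.8 and 23.4 in TNFR2-/- St (0.63, adjusted p = 0.0303). *Tab1*, a partner of the kinase TAK1 named after its values were seen, had 21.9 to 24.9 FPKM in WT St and 29.8 to 37.99 in TNFR2-/- St and was past the adjusted p alone (0.56, adjusted p = 0.0439). None of 15 NF-κB subunits and feedback inhibitors was called, although 9 had groups that did not overlap and were higher in TNFR2-/- St (15.4% of all genes), and the median was 0.45, or 0.30 without TNFR2-/- St replicate 5 and 0.25 with the astrocyte covariate. *Nfkbia*, which encodes IκBα, had 101, 77.1 and 95.6 FPKM in WT St and 123, 125 and 127 in TNFR2-/- St (0.46, adjusted p = 0.0449), below the fold threshold, and *Nfkbiz* had 465, 358 and 426 FPKM in WT St and 616, 600.4 and 585 in TNFR2-/- St (0.54, adjusted p = 0.211). Of 28 genes of PI3K and AKT signaling, 1 was called higher (1.23% of all genes) and 1 lower (0.62%). *Pik3cd*, the p110δ catalytic subunit, had 13.8, 10.3 and 12.2 FPKM in WT St and 22.96, 21.5 and 22.2 in TNFR2-/- St (0.86, adjusted p = 0.00953), and *Pik3cb*, p110β, had 119.9, 118 and 119 FPKM in WT St and 76.00, 87.4 and 60.4 in TNFR2-/- St (−0.68, adjusted p = 0.0307). Both were separate between genotypes, as were all genes called. In the BCL2 family and caspases, 1 of 29 was called higher (1.23% of all genes), the inflammatory caspase *Casp1* (88.5, 63.6 and 63.1 FPKM in WT St and 152, 104 and 204 in TNFR2-/- St, 1.06, adjusted p = 0.0318), and the median was 0.02. *Pik3cd* held without any 1 library. *Traf2*, *Pik3cb*, *Casp1* and the IL1 receptor gene *Il1r1* described below were lost without at least 1 of WT St replicates 2, 3 or 4, TNFR2-/- St replicates 2 or 5, WT NS replicate 4 or TNFR2-/- NS replicate 2 (adjusted p 0.0508 to 0.153).

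Chemokines attract leukocytes and microglia, CXCL9, CXCL10 and CXCL11 through CXCR3. Of 15 CC chemokine genes tested, *Ccl11* and *Ccl8* were called higher and none lower, with a median of 0.44, or 0.33 without TNFR2-/- St replicate 5 and 0.19 with the astrocyte covariate. Of 12 CXC and CX3C chemokine genes, *Cxcl9* was called higher, with a median of 0.24, or 0.24 without TNFR2-/- St replicate 5 and 0.13 with the astrocyte covariate. Over all genes tested, 1.23% were called higher. *Cxcl9* had 39.9, 23.8 and 27.8 FPKM in WT St and 70.9, 55.5 and 159 in TNFR2-/- St (log2 fold change 1.51 ± 0.32 SE, adjusted p = 0.0328), *Ccl11*, eotaxin, had 19.1, 14.9 and 15.1 FPKM in WT St and 51.97, 31.4 and 29.2 in TNFR2-/- St (log2 fold change 1.13 ± 0.22 SE, adjusted p = 0.0253) and *Ccl8* had 1.35, 0.916 and 0.804 FPKM in WT St and 2.35, 2.55 and 8.62 in TNFR2-/- St (log2 fold change 1.51 ± 0.36 SE, adjusted p = 0.0417). Each was higher in all 3 TNFR2-/- St libraries than in any WT St library, as was every gene called higher. *Cxcl9* and *Ccl8* were highest in replicate 5. Other chemokines of interest to the study were not past the threshold. *Ccl2* had 3387, 2278 and 2982 FPKM in WT St and 4772, 4664 and 3662 in TNFR2-/- St (0.61, adjusted p = 0.284), *Cxcl10* had 2701, 2173 and 2350.0 FPKM in WT St and 3839, 3476 and 4109.7 in TNFR2-/- St (0.66, adjusted p = 0.230) and *Ccl7* had 168, 125 and 135 FPKM in WT St and 227, 244 and 196 in TNFR2-/- St (0.64, adjusted p = 0.153), all with groups that did not overlap. *Cxcl11* had 34.9, 19.1 and 28.1 FPKM in WT St and 55.9, 30.4 and 77.1 in TNFR2-/- St (0.93, adjusted p = 0.0956), *Cxcl12* 3.12 to 4.66 FPKM in WT St and 5.85 to 7.48 in TNFR2-/- St (0.68, adjusted p = 0.139) and *Cx3cl1* 415 to 430.4 FPKM in WT St and 413 to 554 in TNFR2-/- St (0.21, adjusted p = 0.239), of which only *Cxcl12* did not overlap. *Gm2673* lies antisense to 39.1% of the 100-base runs of *Cxcl11*, so its reads are uncertain. *Ccl25*, named after its values were seen, was lower by adjusted p alone (22.1 to 23.8 FPKM in WT St and 14.1 to 17.4 in TNFR2-/- St, −0.52, adjusted p = 0.0186).

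Of 23 cytokine and colony-stimulating factor genes, 1 was called, and its direction was down (0.62% of all genes). The list's median was −0.05, or −0.04 without TNFR2-/- St replicate 5 and −0.21 with the astrocyte covariate. *Csf3*, the granulocyte colony-stimulating factor, had 2.12, 1.20 and 1.60 FPKM in WT St and 0.400, 0.824 and 0.611 in TNFR2-/- St (−0.94, adjusted p = 0.0243), with no overlap. *Csf1*, which supports microglia, had 72.9, 47.9 and 68.1 FPKM in WT St and 72.8, 63.9 and 73.3 in TNFR2-/- St (0.17, adjusted p = 0.654) and *Lif* had 117, 74.5 and 115 FPKM in WT St and 140.0, 211 and 141 in TNFR2-/- St (0.68, adjusted p = 0.188). The calls of *Ccl11*, *Ccl8*, *Cxcl9* and *Csf3* were each lost without at least 1 of WT St replicates 2, 3 or 4, TNFR2-/- St replicates 2 or 5, WT NS replicates 2, 3 or 4 or TNFR2-/- NS replicate 2 (adjusted p 0.0530 to 0.137).

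Most genes of the interferon response lay slightly higher in TNFR2-/- St, but most were not called. Of 33 antiviral effectors induced by interferon, 2 were called higher (1.23% of all genes) and 31 were not called. Of the 33, 31 had a positive fold change, 18 had groups that did not overlap and were higher (15.4% of all genes), and the median was 0.55. That median was 0.37 without TNFR2-/- St replicate 5 and −0.01 with the astrocyte marker level as a covariate. *Eif2ak2*, the double-stranded RNA sensor PKR, had 51.1, 39.3 and 43.98 FPKM in WT St and 70.5, 72.1 and 113 in TNFR2-/- St (0.89, adjusted p = 0.0447) and *Ifi44* had 2.71, 2.10 and 1.93 FPKM in WT St and 4.53, 4.35 and 3.85 in TNFR2-/- St (0.80, adjusted p = 0.0161). Among 15 immunity-related GTPases, 1 was called higher (1.23% of all genes), *F830016B08Rik*, and the median was 0.37, or 0.18 without TNFR2-/- St replicate 5 and −0.21 with the astrocyte covariate. *Irgm1* had 23734, 25858 and 23708 FPKM in WT St and 22801, 23724 and 26532 in TNFR2-/- St (−0.01, adjusted p = 0.988), and *Igtp* had 14236, 15785 and 15202 FPKM in WT St and 13445, 13489.6 and 16698 in TNFR2-/- St (−0.06, adjusted p = 0.929). These 2 genes, the list's most abundant by reads, thus overlapped between genotypes.

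In the 32 STAT, IRF, JAK, SOCS and receptor genes tested, *Irf7* and *Il1r1* were called higher (1.23% of all genes), and the median was 0.11, or 0.04 without TNFR2-/- St replicate 5 and −0.04 with the astrocyte covariate. *Irf7*, a transcription factor that drives type I interferon genes, had 10.2, 7.90 and 11.1 FPKM in WT St and 17.02, 13.8 and 24.7 in TNFR2-/- St (0.87, adjusted p = 0.0455), and *Il1r1*, the receptor of IL1β, had 14.3, 8.67 and 9.90 FPKM in WT St and 22.2, 20.9 and 35.4 in TNFR2-/- St (1.21, adjusted p = 0.0437) and differed in NS cells as well (1.09, adjusted p = 0.0419). *Socs6*, named after its values were seen, was past the adjusted p alone (0.39, adjusted p = 0.0220). The call of *F830016B08Rik* held without any 1 library, and those of *Eif2ak2*, *Ifi44*, *Irf7* and *Il1r1* were lost without at least 1 of WT St replicates 2, 3 or 4, TNFR2-/- St replicates 2 or 5, WT NS replicates 2, 3 or 4 or TNFR2-/- NS replicate 2 (adjusted p 0.0504 to 0.159).

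Most sensors of microbial products lay higher in TNFR2-/- St, but most were not called. Of 20 Toll-like receptors, cytosolic sensors and adaptors tested, 2 were called higher (1.23% of all genes) and none lower. Of the same 20, 14 had groups that did not overlap and were higher (15.4% of all genes). The median was 0.44, or 0.31 without TNFR2-/- St replicate 5 and 0.06 with the astrocyte covariate. *Tlr3*, the endosomal receptor of double-stranded RNA, had 414, 265 and 316 FPKM in WT St and 673, 534 and 931 in TNFR2-/- St (1.09, adjusted p = 0.0402), and *Nod1*, a sensor of bacterial peptidoglycan, had 12.2, 8.35 and 10.5 FPKM in WT St and 19.4, 18.5 and 30.4 in TNFR2-/- St (1.08, adjusted p = 0.0179). In the complement list 2 of 10 genes were called higher (1.23% of all genes), with a median of 0.36, or 0.21 without TNFR2-/- St replicate 5 and −0.22 with the astrocyte covariate. These were the C1 proteases *C1s1* (6.36, 3.84 and 5.99 FPKM in WT St and 11.4, 7.56 and 12.8 in TNFR2-/- St, 0.91, adjusted p = 0.0486) and *C1ra* (1.34, 1.15 and 1.23 FPKM in WT St and 2.64, 2.13 and 4.49 in TNFR2-/- St, 0.99, adjusted p = 0.0252), with 17.4% of the 100-base runs of *C1s1* shared with other genes and 34.5% of those of *C1ra* shared with *C1rb*. Of 15 leukocyte adhesion and costimulatory genes, *Cd44*, the hyaluronan receptor, was called (45.8, 43.5 and 44.6 FPKM in WT St and 71.2, 66.8 and 105 in TNFR2-/- St, 0.83, adjusted p = 0.0226), and the median was 0.23, or 0.16 without TNFR2-/- St replicate 5 and 0.09 with the astrocyte covariate. *Jam2* was past the adjusted p but not the fold (522 to 560.3 FPKM in WT St and 624 to 662 in TNFR2-/- St, 0.24, adjusted p = 0.0486), and *Vcam1* had 77.2, 46.3 and 63.03 FPKM in WT St and 79.96, 82.8 and 82.1 in TNFR2-/- St (0.42, adjusted p = 0.220). The calls of *Tlr3*, *Nod1*, *C1s1*, *C1ra* and *Cd44* were lost without at least 1 of WT St replicates 2, 3 or 4, TNFR2-/- St replicates 2 or 5, WT NS replicates 2, 3 or 4 or TNFR2-/- NS replicate 2 (adjusted p 0.0504 to 0.162).

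Antigen presentation by MHC-I draws on the class I heavy chains, β2-microglobulin, the peptide loading complex and the immunoproteasome. None of 12 classical MHC-I and peptide loading genes was called, 8 had groups that did not overlap and were higher (15.4% of all genes), and the median was 0.18, or 0.08 without TNFR2-/- St replicate 5 and 0.05 with the astrocyte covariate. *H2-D1* had 159, 148 and 158 FPKM in WT St and 193, 224 and 263 in TNFR2-/- St and passed the adjusted p but not the fold (0.53, adjusted p = 0.0294). *H2-K1* had 173 to 217 FPKM in WT St and 238 to 258 in TNFR2-/- St (0.33, adjusted p = 0.111), *B2m* 683 to 721 FPKM in WT St and 728 to 854 in TNFR2-/- St (0.17, adjusted p = 0.148), *Erap1* 39.5 to 44.3 FPKM in WT St and 46.7 to 62.7 in TNFR2-/- St (0.36, adjusted p = 0.0681) and *Tapbp* 275 to 305 FPKM in WT St and 318 to 419.9 in TNFR2-/- St (0.30, adjusted p = 0.148). These 4 did not overlap between genotypes and were not past the threshold. Of 11 nonclassical MHC-I genes, *H2-T23* (1.29, 1.38 and 1.28 FPKM in WT St and 2.48, 2.61 and 4.21 in TNFR2-/- St, 0.96, adjusted p = 0.0216) and *H2-Q4* (157, 142 and 141 FPKM in WT St and 196, 221 and 298 in TNFR2-/- St, 0.68, adjusted p = 0.0217) were called higher (1.23% of all genes), with a median of 0.21. MHC genes resemble each other in part. Other genes share 3.59% of the 100-base runs of *H2-D1*, 0.957% of those of *H2-K1*, 3.15% of *H2-T23* and 14.1% of *H2-Q4*. The division of reads in these stretches is uncertain.

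In the immunoproteasome, *Psmb9* was called (8.17, 8.14 and 8.03 FPKM in WT St and 12.9, 10.5 and 17.7 in TNFR2-/- St, 0.69, adjusted p = 0.0449) and the other 4 genes of the list were not, with *Psmb10* at 71.3 to 79.9 FPKM in WT St and 86.6 to 122 in TNFR2-/- St (0.36, adjusted p = 0.0885) and *Psme2* at 102 to 104 FPKM in WT St and 95.2 to 101 in TNFR2-/- St (−0.08, adjusted p = 0.473). The 14 subunits of the constitutive proteasome core lay on the other side. None was called, 13 had a negative fold change, 10 had groups that did not overlap and were lower (17.3% of all genes), and the median was −0.16, or −0.14 without TNFR2-/- St replicate 5 and −0.08 with the astrocyte covariate. The catalytic subunit *Psmb5* had 67.4, 72.5 and 69.6 FPKM in WT St and 61.5, 62.9 and 59.4 in TNFR2-/- St (−0.19, adjusted p = 0.0701), *Psmb6* 133 to 136 FPKM in WT St and 101 to 125 in TNFR2-/- St (−0.23, adjusted p = 0.125) and *Psmb7* 34.8 to 35.8 FPKM in WT St and 28.6 to 35.8 in TNFR2-/- St (−0.14, adjusted p = 0.305). Other genes share 22.2% of the 100-base runs of *Psmb5* and 18.4% of those of *Psme2*. Among 10 genes of MHC-II and its regulators, *Rfxap*, a subunit of the RFX complex at MHC-II promoters, was called lower (14.7, 17.96 and 15.5 FPKM in WT St and 10.05, 12.4 and 7.98 in TNFR2-/- St, −0.65, adjusted p = 0.0413), while *Ciita*, the class II transactivator, had 1.74, 1.48 and 1.60 FPKM in WT St and 2.70, 2.25 and 5.25 in TNFR2-/- St (0.81, adjusted p = 0.0557). The calls of *H2-T23*, *H2-Q4*, *Psmb9* and *Rfxap* were lost without at least 1 of WT St replicates 2, 3 or 4, TNFR2-/- St replicates 2 or 5, WT NS replicates 2, 3 or 4 or TNFR2-/- NS replicate 2 (adjusted p 0.0305 to 0.149, those under 0.05 failing the fold).

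Genes of the oligodendrocyte lineage were mostly not called. Of 15 OPC markers, 2 were called lower (0.62% of all genes), *Pdgfra* and *Lhfpl3* as given above, with a median of −0.00280, or −0.12 without TNFR2-/- St replicate 5 and −0.47 with the astrocyte covariate. *Cspg4*, the NG2 proteoglycan, had 2711, 3166 and 2849.8 FPKM in WT St and 2403, 2953 and 2339 in TNFR2-/- St (−0.19, adjusted p = 0.341). Of 30 regulators of oligodendrocyte differentiation, 1 was called in each direction, with a median of 0.06, or 0.02 without TNFR2-/- St replicate 5 and −0.33 with the astrocyte covariate. *Id2*, an inhibitor of differentiation, had 96.4, 99.2 and 95.1 FPKM in WT St and 147, 129 and 192 in TNFR2-/- St (0.66, adjusted p = 0.0218) and was the one called higher, with no overlap. *Lingo1* had 141, 147 and 138 FPKM in WT St and 111, 126 and 108 in TNFR2-/- St (−0.31, adjusted p = 0.0547) and *Hes1* 13.3, 10.7 and 13.4 FPKM in WT St and 21.4, 12.5 and 10.5 in TNFR2-/- St (0.18, adjusted p = 0.654). None of 21 myelin genes was called or had groups that did not overlap, and *Mbp* ranged from 209.7 to 782 FPKM within WT St.

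Cell cycle genes lay slightly lower in TNFR2-/- St, and none of the 43 genes of DNA replication and S phase or the 51 of G2 and mitosis was called. Of the former 41 had a negative fold change and 14 had groups that did not overlap and were lower (17.3% of all genes), with a median of −0.28. Of the latter all 51 had a negative fold change and 14 had groups that did not overlap, with a median of −0.36. Without TNFR2-/- St replicate 5 these medians were −0.11 and −0.17. They were 0.14 and 0.29 with the astrocyte marker level as a covariate, which cannot be fully told apart from genotype. *Mki67*, the proliferation marker, had 333, 288 and 307 FPKM in WT St and 303, 295 and 174 in TNFR2-/- St (−0.31, adjusted p = 0.420), *Top2a* had 2692, 2327 and 2486 FPKM in WT St and 2620.3, 2089 and 1517 in TNFR2-/- St (−0.30, adjusted p = 0.405) and *Pcna* had 62.9, 59.5 and 60.8 FPKM in WT St and 56.8, 47.6 and 35.6 in TNFR2-/- St (−0.41, adjusted p = 0.153). In each the lowest value was that of TNFR2-/- St replicate 5. Of 27 cyclins, CDK inhibitors and p53 targets 13 had groups that did not overlap and were lower (17.3% of all genes), and 1 was called (1.23%), *Cdk6*, a kinase of the G1 phase, which was higher (27.8, 22.8 and 24.1 FPKM in WT St and 45.8, 37.1 and 43.6 in TNFR2-/- St, 0.75, adjusted p = 0.0157), and the median was −0.22, or −0.16 without TNFR2-/- St replicate 5 and 0.01 with the astrocyte covariate. The calls of *Pdgfra*, *Lhfpl3*, *Id2* and *Cdk6* were lost without at least 1 of WT St replicates 2, 3 or 4, TNFR2-/- St replicates 2, 4 or 5, WT NS replicates 2, 3 or 4 or TNFR2-/- NS replicate 2 (adjusted p 0.0408 to 0.166, those under 0.05 failing the fold).

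Cholesterol synthesis, a pathway that myelinating cells need and that SREBP2 controls, was the list with the most members called lower. Of 25 genes 5 were called lower (0.62% of all genes) and none higher, 16 were lower by adjusted p alone (2.78% of all genes), 23 had groups that did not overlap and were lower (17.3%), and the median was −0.48. *Msmo1* had 717, 869.9 and 771 FPKM in WT St and 470.1, 531 and 372 in TNFR2-/- St (log2 fold change −0.79 ± 0.17 SE, adjusted p = 0.0345), *Sc5d* had 2076, 2553 and 2234 FPKM in WT St and 1443, 1576 and 1343 in TNFR2-/- St (log2 fold change −0.65 ± 0.11 SE, adjusted p = 0.0177) and *Sqle* had 364, 443 and 390.5 FPKM in WT St and 267, 282 and 226 in TNFR2-/- St (log2 fold change −0.63 ± 0.13 SE, adjusted p = 0.0293). *Dhcr7*, an enzyme of the last steps, had 799.8, 901 and 806 FPKM in WT St and 547, 619 and 490.1 in TNFR2-/- St (−0.60, adjusted p = 0.0229), and *Cyp51*, the fifth gene called, had 107, 125 and 110.0 FPKM in WT St and 74.4, 87.5 and 65.7 in TNFR2-/- St (−0.59, adjusted p = 0.0363). All are enzymes of the steps from squalene to cholesterol. In each of the 5 the WT St values lay above the TNFR2-/- St values, as in all genes called lower. *Srebf2* itself had 1491 to 1609.8 FPKM in WT St and 1155 to 1432 in TNFR2-/- St (−0.28, adjusted p = 0.108). Before stimulation the list's median was −0.35, and 23 of 25 genes were lower. Without TNFR2-/- St replicate 5 none was called and the median was −0.37, and with the astrocyte covariate it was −0.17. *Cyp51* and *Srebf2* were named after their values were seen.

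Of 79 cytosolic ribosomal protein genes, 77 had a negative fold change and 74 had groups that did not overlap and were lower (17.3% of all genes), but the differences were small, with a median of −0.27, and *Rpl34* alone was called. *Rpsa* had 881, 855 and 891 FPKM in WT St and 776, 803 and 666 in TNFR2-/- St (−0.23, adjusted p = 0.164) and *Rplp0* 82.01, 80.4 and 87.4 FPKM in WT St and 73.9, 71.8 and 59.7 in TNFR2-/- St (−0.29, adjusted p = 0.120). The median was −0.20 without TNFR2-/- St replicate 5 and 0.04 with the astrocyte covariate. In the same fit the NS median of these genes was −0.05.

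In energy metabolism, 1 of 34 genes of the TCA cycle and pyruvate dehydrogenase was called higher (1.23% of all genes), 16 had groups that did not overlap and were higher (15.4%), and the median was 0.20, or 0.24 without TNFR2-/- St replicate 5 and 0.36 with the astrocyte covariate. *Pdk2*, a kinase that inhibits pyruvate dehydrogenase, had 23.4, 21.1 and 22.01 FPKM in WT St and 33.9, 35.8 and 38.2 in TNFR2-/- St (0.69, adjusted p = 0.00974). None of 72 nuclear genes of the respiratory chain (median 0.01), 13 genes of the mitochondrial genome (0.11) or 28 of glycolysis and the pentose phosphate pathway (0.02) was called. The respiratory chain median was 0.08 without TNFR2-/- St replicate 5 and 0.29 with the astrocyte covariate. Of 43 antioxidant and redox genes 2 were called higher, the metallothionein *Mt2* (584, 439 and 509 FPKM in WT St and 966, 911 and 994 in TNFR2-/- St, 0.91, adjusted p = 0.0197) and the cystine transporter *Slc7a11* (66.6, 56.9 and 65.3 FPKM in WT St and 89.9, 94.04 and 151 in TNFR2-/- St, 0.78, adjusted p = 0.0442), with a median of 0.13, or 0.11 without TNFR2-/- St replicate 5 and 0.03 with the astrocyte covariate. Reads of *Mt2* may include those of the antisense *Gm45774*, which covers 22.4% of its 100-base runs. *Pdk2* held without any 1 library. *Mt2*, *Slc7a11* and the 5 cholesterol genes were lost without at least 1 of WT St replicates 2, 3 or 4, TNFR2-/- St replicates 2 or 5, WT NS replicates 2, 3 or 4 or TNFR2-/- NS replicate 2 (adjusted p 0.0509 to 0.153).

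No member was called among 36 early-response genes (median −0.26), 25 integrins and laminins (−0.04), 26 collagens (−0.19) or 26 genes of the integrated stress and unfolded protein response (−0.04). *Jun* had 450.3, 531 and 496 FPKM in WT St and 378, 460.1 and 369 in TNFR2-/- St (−0.29, adjusted p = 0.448), *Itgb1* 2724 to 2923 FPKM in WT St and 2227 to 2762 in TNFR2-/- St (−0.15, adjusted p = 0.286), *Col11a1* 171 to 201 FPKM in WT St and 142 to 198 in TNFR2-/- St (−0.15, adjusted p = 0.480) and *Hspa5* 185 to 201 FPKM in WT St and 197 to 239 in TNFR2-/- St (0.19, adjusted p = 0.192). All 4 overlapped between genotypes. The early-response median was −0.14 without TNFR2-/- St replicate 5 and 0.46 with the astrocyte covariate.

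**Figure D5:**
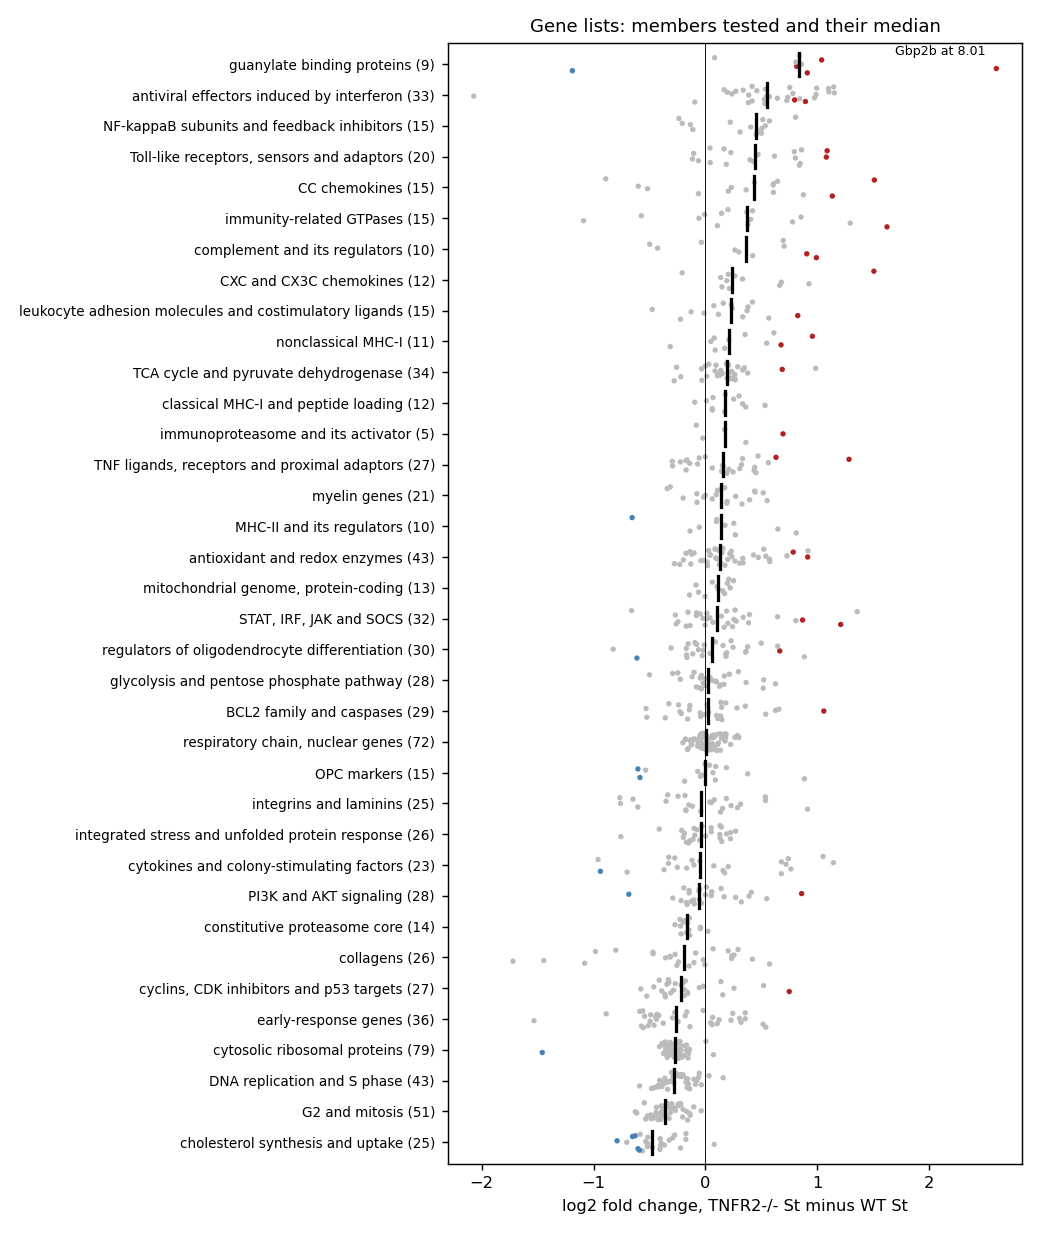
Log2 fold change between TNFR2-/- St and WT St for each member of 36 gene lists (number tested in parentheses), 1 point per gene, in red where called higher and in blue where called lower, with black bars at list medians and *Gbp2b* drawn at the right edge. Medians run from −0.48 for cholesterol synthesis to 0.84 for guanylate binding proteins, beside −0.003 over all genes tested.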

How the data were processed

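RNA from OPC cultures of WT and TNFR2-/- pups was sequenced as 12 libraries of 4 groups. The methods place the pups at postnatal days 3 to 5 and give BGISeq-500 sequencing, and the labels state days 2 to 5 and Illumina library protocols. Per the labels and methods, Trim Galore was used by the authors for trimming and STAR for alignment to GRCm38 and for counting pairs of reads by gene. They made their own calls with EdgeR, which were not used here. The deposited values are FPKM per gene symbol, in separate NS and St tables made by the authors, and tests between St libraries stayed within the St table except for the shared estimate of the spread and the interaction. Each table held 45792 entries, of which 229 sharing 99 symbols were left out and 23 symbols had become dates. Multiplying FPKM back returned whole numbers of reads (tolerance 0.01) in all 26636 genes detected in 2 libraries or more, which gave the read counts and library totals.

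Positions came from GENCODE M21, matched on the current (41828) or an older symbol (823). The model in limma 3.58.1 (R 4.3.3) took log2(FPKM + 0.5) of the 12 libraries as 4 group means with a mean-dependent prior, and the interaction was tested in the same fit. Figures were drawn with matplotlib 3.10.9 in Python 3.11.15. Shared sequence was counted as runs of 100 bases between GENCODE transcripts. The procedure was tested on simulated data.

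Genes named were the 12 protein-coding genes with the largest and the 12 with the smallest fold change among calls without overlap, up to 4 of other biotypes or without a match in each direction, up to 4 called members of each gene list (with the 2 members of most reads where fewer than 2 were called), and genes the study names. Some genes that the rule takes are not reported here. Genes said to be named after their values were seen lie outside that rule. The groups compared, the gene lists and the rule were chosen with earlier results of these data known. Alternatives were other pseudocounts, filters, scalings, thresholds and models, a replicate block, voom on the recovered reads and each library left out. Leaving out NS libraries or the TNFR2-/- culture numbered 5, and the astrocyte covariate, were added after the data were seen.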

Additional observations from a re-analysis of the deposited data

Results flagged for a closer look

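*Gbp2b* was flagged because its genotype difference changed with stimulation by a test of that change. The interaction was 7.63 on the log2 scale (limma, adjusted p = 0.000141), from 0.00585, 0 and 0.0117 FPKM in WT NS and 0.123, 0.0754 and 0.301 in TNFR2-/- NS to 0.216, 1.63 and 1.05 FPKM in WT St and 348, 286 and 406 in TNFR2-/- St.

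*Psmb5*, a catalytic subunit of the constitutive proteasome, was flagged because its groups were separate in both conditions, in opposite directions. It had 65.9, 65.3 and 64.7 FPKM in WT NS and 70.7, 78.8 and 71.9 in TNFR2-/- NS, all higher in TNFR2-/- NS (log2 fold change 0.17), and 67.4, 72.5 and 69.6 FPKM in WT St and 61.5, 62.9 and 59.4 in TNFR2-/- St, all lower in TNFR2-/- St (−0.19). The interaction was −0.36 on the log2 scale and not past the threshold (limma, adjusted p = 0.501), or adjusted p = 0.0969 with the cultures as a block.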

How the results depend on the processing

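The 334 genes called kept their direction in every alternative, but the number called moved. Their groups did not overlap, so leaving out libraries or fitting the 6 St libraries alone could not change a direction. Of 222 genes called higher and 112 called lower, 129 and 53 were called with no filter on low values, 39 and 10 in a fit over the 6 St libraries, 490 and 502 by adjusted p alone and 26 and 8 at an adjusted p of 0.01. Genes called lower rose to 170 with the correlation within cultures estimated, to 192 with a weight for each library and to 200 with the replicate number as a block. With single libraries left out, including NS libraries, calls ranged from 39 to 286 higher and 15 to 208 lower. Without both libraries of TNFR2-/- culture 5 there were 100 and 36. With the astrocyte marker level as a covariate there were 12 and 5. That level itself differed between the genotypes, so the covariate and the genotype cannot be fully told apart. The cause of these moves was not tested. In the remaining settings both counts stayed within 1.5 times, with 452 genes called by voom on recovered reads, 347 under median-of-ratios scaling and 313 under quantile normalization.

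Libraries with the same number were compared over 13554 genes. Deviations from the group means in NS and St libraries of 1 genotype had correlations of 0.34 to 0.65, so they pair by culture. Between WT and TNFR2-/- libraries they were −0.06 to 0.20 in 4 pairs, so the number does not pair the genotypes. With it as a replicate block, 238 genes were called higher and 200 lower, 224 of them among the 334. With the cultures as a replicate block the interaction still called 1 gene. Its count was 1 to 2 with single libraries left out.

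Among the named genes, 4011 values kept their direction and their side of the adjusted p threshold across alternatives, including genes never past it. A further 744 were no longer past that threshold and 76 came past it. Another 94, not past it in the main fit, changed direction. The fold and level needed for a call were not part of this count. At 28701304 to 30249578 read pairs a library, *Foxi1*, with at most 6 reads, was measured with little precision.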
